A study of Aspergillus nidulans and Aspergillus wentii with 48 samples.

Results

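The genes described here are the proline catabolism (*prn*) cluster of the filamentous fungus *Aspergillus nidulans* and *gatA*, the gene of 4-aminobutyrate (GABA) transaminase. The members were taken by their gene identifiers and number 6 of the 10988 genes in the count table: *prnA* (AN1729), *prnX* (AN1730), *prnD* (AN1731), *prnB* (AN1732), *prnC* (AN1733) and *gatA* (AN2248). In the RefSeq annotation of strain FGSC A4 all 6 lie on chromosome VII, with the 5 *prn* genes next to each other and *gatA* outside the cluster. The study compared hyperosmotic stress responses by RNA sequencing, and 24 of its 48 libraries are from *A. nidulans* and are used here. They fall into 8 groups of 3 libraries, described as biological replicates, 2 strains in each of 4 conditions. The mutant Δ*gfdB* lacks a glycerol-3-phosphate dehydrogenase gene, replaced by the marker AfupyrG+ (Δ*gfdB*::AfupyrG+), and the reference strain THS30 carries the gene. Both strains share the alleles *pyrG89*, *pyroA*+ and *veA*+ and both carry AfupyrG+, and each genotype is represented by 1 strain. Mycelium was grown in Barratt's minimal broth for 38 h (Δ*gfdB*) or 36 h (THS30), then washed and moved to fresh broth, untreated cultures included. There it was kept for 0.5 h with sorbitol at 2 M, with NaCl at 1 M, with both at these doses (called the combination below), or with neither (untreated). The age of the culture therefore differed with the strain, and the effects of the 2 cannot be told apart.

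*A. nidulans* can use proline as a nitrogen and carbon source. PrnB, a permease, takes proline up, PrnD (proline oxidase) and PrnC (pyrroline-5-carboxylate dehydrogenase) convert it to glutamate in the mitochondrion, and PrnA is the zinc cluster activator through which proline induces the pathway. *prnD* and *prnB* are divergently transcribed from a shared intergenic region, and the GATA factor AreA and the carbon catabolite repressor CreA act on the cluster. No role is given here for *prnX*. GatA removes the amino group of GABA and other omega-amino acids, which feeds nitrogen into glutamate, and its gene is under the activator AmdR. Proline is also known as a compatible solute that many organisms accumulate under osmotic stress.

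Library totals ran from 11438978 to 53348830 reads, with the deepest library in THS30 under sorbitol (replicate 2). The deleted gene had 0 to 2 reads in each Δ*gfdB* library and 71 to 5194 in each THS30 library. One library stood apart from its group, untreated Δ*gfdB* replicate 1. Correlations were taken over log2 CPM (read counts scaled to the library total, here with TMM scaling between libraries) of the genes tested. Its mean correlation with the other libraries of its group was 0.9744, against 0.9837 or more for each of the other 23 libraries. Where a call or the sign of a value named below changes without untreated Δ*gfdB* replicate 1, the value without it is given. Of 10988 genes 9498 had enough reads to be tested, among them all 6 members. Below, a gene counts as called when its fold change exceeded 2 and its p from edgeR's quasi-likelihood test, adjusted by Benjamini-Hochberg over all genes tested, was under 0.05. SE stands for standard error. Levels are in RPKM, reads scaled to gene length and library total, so they can be set against each other between genes. RPKM carries no TMM scaling, while the log2 fold changes do unless stated, so fold sizes can differ between them. In RNA from whole mycelium, fewer cells expressing a gene and less transcript per cell cannot be told apart.

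The 6 genes differed widely in level. In untreated cultures *gatA* was between the 69th and the 202nd most expressed gene of the table in each library, at 705 to 1491 RPKM. *prnA* and *prnX* followed with 12.7 to 19.8 and 9.87 to 20.1 RPKM, *prnC* with 3.64 to 7.72 and *prnB* with 0.995 to 2.45 RPKM. *prnD*, the oxidase gene, was at 0.167 to 0.663 RPKM, which is 4 to 25 reads per library. At such counts the interval from counting error alone is wide: the 4 reads allow 0.046 to 0.426 RPKM (exact Poisson, 95%). The other 5 genes exceeded the low-count limit of 0.498 CPM in all 24 libraries, *prnD* in 19 of them. *prnD* passed with all 3 libraries in the THS30 groups under sorbitol, NaCl and the combination and in Δ*gfdB* under sorbitol, and not in either untreated group.

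**Figure D1:**
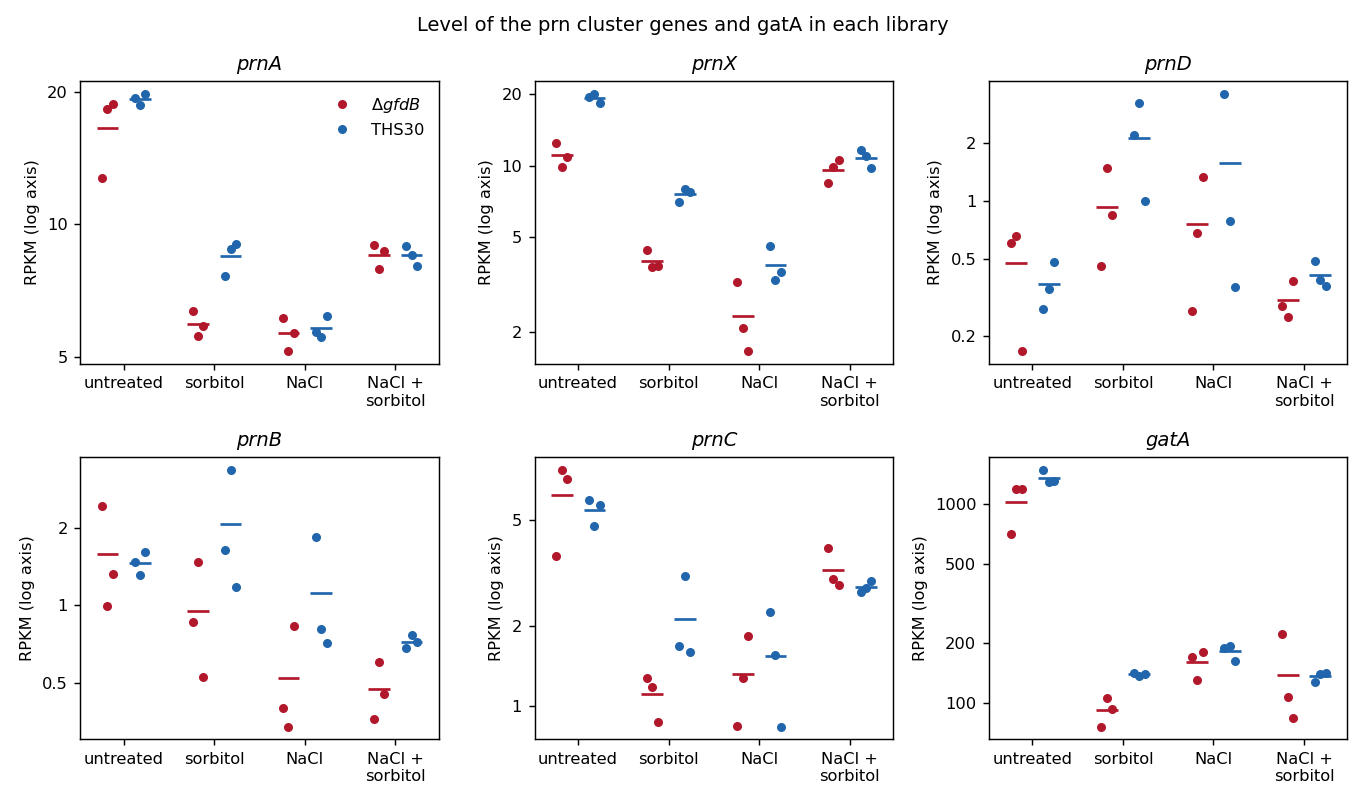
RPKM of the 6 genes in each of the 24 libraries on log axes, by condition, with Δ*gfdB* in red to the left of THS30 in blue and the group mean as a horizontal line. *gatA* is between 75.9 and 222 RPKM in every stressed library and at 705 RPKM or more in every untreated one, while *prnD* and *prnB* scatter within groups.

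*gatA* fell in both strains under all 3 treatments, and it had the largest change of the 6 genes in each, except that under NaCl in THS30 *prnD* exceeded it when 1 of several libraries was left out (2.92 against −2.48 without NaCl replicate 3). In Δ*gfdB* it had 75.9, 106 and 93.3 RPKM under sorbitol, 169, 131 and 181 RPKM under NaCl, and 222, 106 and 83.7 RPKM in the combination, against 705, 1195 and 1184 RPKM untreated. In THS30 the levels were 141, 137 and 140 RPKM under sorbitol, 188.2, 193.8 and 162.98 RPKM under NaCl, and 127, 140 and 142 RPKM in the combination, against 1491, 1284 and 1303 RPKM untreated. No stressed library reached the lowest untreated one of its strain. Under sorbitol the log2 fold change was −3.25 in Δ*gfdB* (SE 0.27, adjusted p = 6.23e-10) and −3.18 in THS30 (SE 0.27, adjusted p = 1.05e-09). Under NaCl it was −2.30 in Δ*gfdB* (SE 0.26) and −2.56 in THS30 (SE 0.26). The combination gave −2.73 in Δ*gfdB* (SE 0.26) and −3.10 in THS30 (SE 0.27). Among the 9498 genes tested, ordered by log2 fold change from the lowest, *gatA* stood at place 39 under sorbitol and 35 in the combination in Δ*gfdB*, and at 34 and 31 in THS30. Under NaCl it stood at place 182 or nearer the lowest in both strains. In the stressed cultures it was still the most expressed of the 6 genes.

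*prnA*, the activator gene, was lower in all 3 treatments in both strains, and the 3 libraries of each treatment lay below the untreated ones. It had 6.33, 5.56 and 5.86 RPKM in Δ*gfdB* under sorbitol and 6.13, 5.15 and 5.65 RPKM under NaCl, against 12.7, 18.3 and 18.7 RPKM untreated. In THS30 it had 7.62, 8.78 and 9.03 RPKM under sorbitol and 5.68, 5.55 and 6.18 RPKM under NaCl, against 19.3, 18.6 and 19.8 RPKM untreated. It fell by 1.25 (SE 0.12) and 1.17 (SE 0.12) on the log2 scale under sorbitol and NaCl in Δ*gfdB*, and by 1.07 (SE 0.12) and 1.39 (SE 0.12) in THS30. In the combination it stood at 8.99, 7.92 and 8.67 RPKM in Δ*gfdB* and at 8.93, 8.50 and 8.04 RPKM in THS30. The adjusted p was below the threshold there as well (1.27e-05 and 6.55e-07), with log2 values of −0.78 and −0.96 that stay under 2-fold. The THS30 value passed 2-fold without TMM scaling between libraries, at −1.18, and by limma, at −1.09.

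*prnX* fell furthest under NaCl. In Δ*gfdB* it had 3.26, 2.09 and 1.67 RPKM under NaCl and 4.41, 3.74 and 3.80 RPKM under sorbitol, against 12.5, 9.87 and 10.9 RPKM untreated. In THS30 it had 4.58, 3.32 and 3.58 RPKM under NaCl and 7.02, 8.01 and 7.78 RPKM under sorbitol, against 19.4, 20.1 and 18.4 RPKM untreated. The log2 fold changes were −1.86 (SE 0.17) and −1.24 (SE 0.16) in Δ*gfdB*, and −1.995 (SE 0.15) and −1.23 (SE 0.14) in THS30. The combination left *prnX* closer to the untreated level, at 8.46, 9.86 and 10.6 RPKM in Δ*gfdB* and 11.6, 11.0 and 9.82 RPKM in THS30. There the log2 value was −0.02 in Δ*gfdB* (95% interval −0.31 to 0.27; 0.056 without untreated replicate 1) with overlapping libraries, and −0.62 in THS30 (SE 0.14, adjusted p = 0.000814), which is under 2-fold although the libraries did not overlap.

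*prnC*, the gene of the last enzyme of the route, also fell under the single stressors. It had 1.27, 1.18 and 0.871 RPKM in Δ*gfdB* under sorbitol and 0.838, 1.27 and 1.83 RPKM under NaCl, against 3.64, 7.72 and 7.14 RPKM untreated. In THS30 it had 1.68, 3.06 and 1.59 RPKM under sorbitol and 2.25, 1.55 and 0.835 RPKM under NaCl, against 5.93, 4.74 and 5.68 RPKM untreated. The log2 fold changes were −2.27 (SE 0.36) and −1.83 (SE 0.34) in Δ*gfdB*, and −1.21 (SE 0.31) and −1.49 (SE 0.32) in THS30. The combination gave 3.91, 2.98 and 2.83 RPKM in Δ*gfdB* and 2.67, 2.77 and 2.94 RPKM in THS30, with log2 values of −0.74 and −0.75 (adjusted p = 0.0435 and 0.0409) that are under 2-fold. Without untreated Δ*gfdB* replicate 1, which had the lowest *prnC* of its group, the value in Δ*gfdB* passed 2-fold at −1.03.

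*prnD* moved the other way in THS30. The oxidase gene had 2.20, 3.23 and 1.00 RPKM under sorbitol (82, 294 and 37 reads), against 0.275, 0.350 and 0.485 RPKM untreated (9, 11 and 14 reads). The groups did not overlap, and the log2 fold change was 2.69 (SE 0.68, adjusted p = 0.00141). Under NaCl it had 3.62, 0.792 and 0.360 RPKM, so 1 library stood far above the others and the lowest lay within the untreated range. The 136 reads of the highest library allow 3.04 to 4.28 RPKM and the 30 reads of the next 0.533 to 1.13 RPKM (exact Poisson, 95%), so the gap between replicates exceeds counting error. The gene was called under NaCl at 2.43 (SE 0.71, adjusted p = 0.00386), and without NaCl replicate 1 the value was 0.97 with an adjusted p of 0.198. By limma on log2(RPKM + 1), a scale that understates changes of low genes, it was 0.71 with an adjusted p of 0.0521. In the combination it had 0.489, 0.390 and 0.364 RPKM, close to the untreated level, with a log2 value of 0.40 (SE 0.84).

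In Δ*gfdB* *prnD* passed no test against untreated cultures. Its levels were 0.461, 1.49 and 0.850 RPKM under sorbitol, 0.270, 0.683 and 1.34 RPKM under NaCl, and 0.287, 0.250 and 0.387 RPKM in the combination, against 0.611, 0.663 and 0.167 RPKM untreated. All 3 treatments overlapped the untreated libraries. The log2 values were 1.14 (SE 0.74), 1.01 (SE 0.75) and −0.55 (SE 0.88), with adjusted p between 0.172 and 0.613. The 95% intervals were −0.30 to 2.59 for sorbitol and −0.47 to 2.48 for NaCl.

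*prnB*, the permease gene, was not called in THS30 under any of the treatments. Its levels there were 1.64, 3.38 and 1.18 RPKM under sorbitol, 1.84, 0.808 and 0.712 RPKM under NaCl, and 0.681, 0.770 and 0.719 RPKM in the combination, against 1.48, 1.32 and 1.61 RPKM untreated. The log2 values were 0.66 (SE 0.39), −0.06 (SE 0.42) and −0.81 (SE 0.44). In Δ*gfdB* it had 0.860, 1.47 and 0.525 RPKM under sorbitol, 0.400, 0.338 and 0.831 RPKM under NaCl, and 0.360, 0.601 and 0.452 RPKM in the combination, against 2.45, 0.995 and 1.32 RPKM untreated. It fell there under NaCl (log2 −1.15, SE 0.49, adjusted p = 0.0378) and in the combination (log2 −1.59, SE 0.49, adjusted p = 0.00891), and had −0.53 under sorbitol (SE 0.45). Both calls rest on untreated Δ*gfdB* replicate 1, the highest library. Without it the values were −0.70 and −1.13, with adjusted p of 0.23 and 0.06955. The call under NaCl was also lost without NaCl replicate 1 (−0.95) or replicate 2 (−0.94), and with only the groups compared (−1.14, adjusted p = 0.0609). By limma on log2(RPKM + 1) the values were −0.74 under NaCl and −0.78 in the combination, both under 2-fold.

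**Figure D2:**
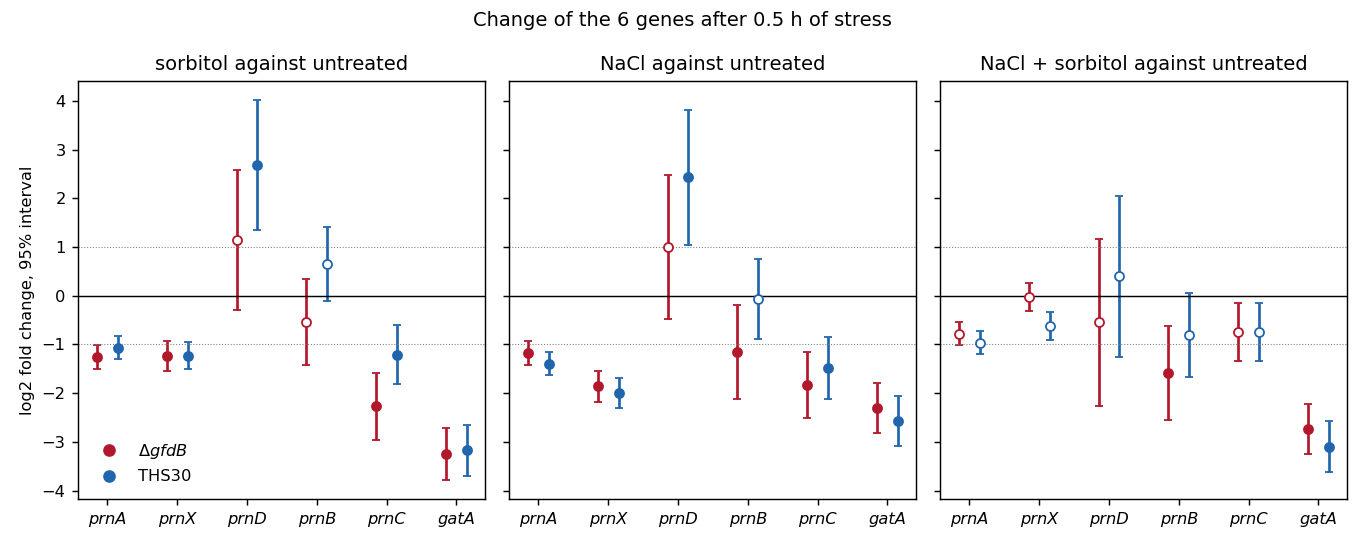
Log2 fold change of each gene against the untreated cultures of its strain, with 95% intervals, for sorbitol, NaCl and the combination, with Δ*gfdB* in red to the left of THS30 in blue. Filled symbols are called changes, and dotted lines mark 2-fold. *gatA* lies between −2.30 and −3.25 in all 6 comparisons, and *prnD* has the widest intervals.

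Counted over the 6 genes, 4 were called under sorbitol in Δ*gfdB*, all lower, where 29.4% of all genes tested were called and 14.1% called lower. Under NaCl in Δ*gfdB* it was 5, all lower (35.9% of all genes called, 17.5% lower), and in the combination 2, both lower (13.8% called, 8.09% lower). In THS30, 5 were called under sorbitol, of which 4 were lower (26.6% of all genes called, 11.3% lower). Under NaCl 5 were called in THS30, again 4 of them lower (37.1% called, 18.1% lower), and in the combination 1, lower (15.8% called, 8.23% lower). The median log2 fold change of the 6 genes was −1.24, −1.50 and −0.76 in Δ*gfdB* under sorbitol, NaCl and the combination, where that of all genes was −0.05, −0.09 and −0.12. In THS30 the medians were −1.14, −1.44 and −0.78 for the 6 genes and −0.01, −0.11 and −0.06 for all genes. The 3 comparisons of a strain share its untreated libraries.

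The strains, which also differed in culture age, were compared directly in each condition. None of the 6 genes was called in Δ*gfdB* against THS30, where edgeR called 2.58% of all genes untreated, 4.31% under sorbitol, 2.26% under NaCl and 1.99% in the combination. With an unadjusted p under 0.05 there were 1, 4, 1 and 0 of the 6, and DESeq2 called 0 in each. *prnX* came nearest. It was lower in Δ*gfdB* with no overlap of the libraries in untreated cultures (log2 −0.75, SE 0.14, adjusted p = 0.00116), under sorbitol (−0.76, SE 0.16, adjusted p = 0.000868) and under NaCl (−0.62, SE 0.17, adjusted p = 0.0178), each under 2-fold. In the combination its log2 value was −0.15 (95% interval −0.44 to 0.13) and the libraries overlapped.

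The other strain differences were smaller or less certain. *gatA* had 705, 1195 and 1184 RPKM in untreated Δ*gfdB* and 1491, 1284 and 1303 RPKM in untreated THS30, without overlap, and a log2 value of −0.35 (SE 0.25, adjusted p = 0.36), which was −0.13 without the Δ*gfdB* library at 705 RPKM. Under sorbitol it had −0.42 (SE 0.25, adjusted p = 0.191), again with no overlap. In untreated cultures *prnB* had 0.15 and *prnA* −0.16, and without that library −0.30 and 0.0094. *prnA* was lower in Δ*gfdB* under sorbitol by less than 2-fold (log2 −0.34, SE 0.12, adjusted p = 0.0359). *prnB* and *prnC* had −1.04 (SE 0.42, adjusted p = 0.0587) and −0.83 (SE 0.37, adjusted p = 0.0796) under sorbitol. Without TMM scaling, which lowers the median of all genes in this comparison to −0.21, these 2 were called at −1.22 and −1.01. *prnB* was also called without THS30 sorbitol replicate 3 (−1.29) or Δ*gfdB* sorbitol replicate 2 (−1.45). *prnD* was not separable between the strains in any condition, with log2 values between −1.03 and 0.52.

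The response of Δ*gfdB* minus that of THS30 was tested by the interaction of strain and treatment. None of the 18 interactions of the 6 genes was called, and their log2 values ran from −1.54 to 0.60 with a smallest adjusted p of 0.144 by edgeR's quasi-likelihood test. Of all genes, 2.05% were called in the sorbitol interaction, 0.663% in that of NaCl and 0.337% in that of the combination. Without untreated Δ*gfdB* replicate 1 the shares for sorbitol and the combination were 1.26% and 0.96%. In these 3 tests 1, 0 and 1 of the 6 genes had an unadjusted p under 0.05. In the combination this was *prnX*, at 0.60 (95% interval 0.20 to 1.00, adjusted p = 0.144). DESeq2 called 0 in each, although in the combination it gave 1 of the 6 genes an adjusted p under 0.05. For *gatA* the 95% interval of the interaction was −0.76 to 0.61 with sorbitol. With NaCl it was −0.42 to 0.95, and with the combination −0.32 to 1.06. *prnC* had −1.06 under sorbitol (adjusted p = 0.156). Without untreated Δ*gfdB* replicate 1 it was −1.364 and was called (adjusted p = 0.0482). The calls of *prnD* in THS30 and not in Δ*gfdB*, and of *prnB* in Δ*gfdB* and not in THS30, are thus not shown to differ between the strains.

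The treatments were also compared with each other. NaCl against sorbitol gave 0 calls among the 6 genes in Δ*gfdB* (16.2% of all genes called) and 0 in THS30 (14.4%) by edgeR and by DESeq2, with an unadjusted p under 0.05 for 2 and 3 genes. *gatA* was higher under NaCl than under sorbitol in both strains, with no overlap, by 0.95 in Δ*gfdB* (SE 0.25, adjusted p = 0.00285) and 0.61 in THS30 (SE 0.25, adjusted p = 0.0415) on the log2 scale. *prnX* was lower under NaCl than under sorbitol, at −0.62 in Δ*gfdB* (SE 0.18, adjusted p = 0.005) and −0.77 in THS30 (SE 0.15, adjusted p = 0.000215). All 4 values are under 2-fold. Without Δ*gfdB* NaCl replicate 2 the *gatA* value in Δ*gfdB* was 1.09 and was called. Without THS30 NaCl replicate 1 *prnB* and *prnD* were called lower in THS30, at −1.27 and −1.72.

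The combination was compared with each single stressor as well. Against sorbitol 2 of the 6 genes were called in Δ*gfdB* (16.8% of all genes), *prnX* at 1.22 (SE 0.16) and *prnC* at 1.53 (SE 0.37). Against NaCl the same genes were called in Δ*gfdB* (34.5% of all genes), at 1.84 (SE 0.17) and 1.09 (SE 0.35). The *prnC* call against NaCl was lost without NaCl replicate 1 (0.81, adjusted p = 0.0619) or combination replicate 1 (0.93, under 2-fold), and without NaCl replicate 1 *prnD* was called at −1.99. Without Δ*gfdB* sorbitol replicate 3 *prnB* was called against sorbitol at −1.39. In THS30 the calls against sorbitol (19.8% of all genes) were *prnB* at −1.47 (SE 0.41) and *prnD* at −2.29 (SE 0.63). Without THS30 sorbitol replicate 2, the deepest library and the highest in both genes, *prnB* had −0.87 with an adjusted p of 0.0854. Against NaCl in THS30 (37.8% of all genes) *prnX* was called at 1.38 (SE 0.15) and *prnD* at −2.03 (SE 0.66), although the *prnD* libraries overlapped. Without NaCl replicate 1 *prnD* had −0.57 (adjusted p = 0.418), and *prnC*, at 0.74 with all libraries, was called (1.115, adjusted p = 0.0102). *gatA* was not called between the combination and a single stressor in either strain, with log2 values between −0.54 and 0.52.

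The combined response was set against the sum of the single responses on the log2 scale, where 0 means that they add up. For *gatA* the departure was 2.82 in Δ*gfdB* (SE 0.36) and 2.64 in THS30 (SE 0.36), since its level after both stressors was near that after either alone. *prnX* had 3.08 (SE 0.23) and 2.61 (SE 0.21), *prnA* 1.64 (SE 0.18) and 1.50 (SE 0.17), and *prnC* 3.36 (SE 0.50) and 1.95 (SE 0.45), in Δ*gfdB* and in THS30. *prnD* had −2.70 (SE 1.11) and −4.72 (SE 0.95). *prnB* had 0.10 in Δ*gfdB* (SE 0.75), or −0.35 without untreated replicate 1, and −1.41 in THS30 (SE 0.59). Of the 6 genes 5 were called in Δ*gfdB* and 6 in THS30. The calls of *prnD* in Δ*gfdB* and of *prnB* in THS30, with adjusted p of 0.0321 and 0.0347, were lost without TMM scaling and without any 1 of several libraries: *prnD* had −1.88 without Δ*gfdB* NaCl replicate 3, and *prnB* had −0.81 without THS30 sorbitol replicate 2. Such departures were common in this experiment, with 52.4% of all genes called in Δ*gfdB* and 55.2% in THS30.

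The cluster genes did not keep fixed proportions. The ratio of *prnX* to *prnA* RPKM averaged 0.411 ± 0.119 under NaCl, 0.672 ± 0.0237 under sorbitol and 1.14 ± 0.170 in the combination in Δ*gfdB*, against 0.701 ± 0.244 untreated (SD, n = 3). In THS30 it was 0.661 ± 0.127 under NaCl, 0.899 ± 0.0318 under sorbitol and 1.27 ± 0.0436 in the combination, against 1.00 ± 0.0730 untreated. Under sorbitol and under NaCl all 3 Δ*gfdB* libraries had a lower ratio than the THS30 ones. Untreated Δ*gfdB* replicate 1, at 0.982, was the only library of its group within the THS30 range. The ratio of *prnC* to *prnB* in THS30 averaged 1.09 ± 0.230 under sorbitol and 1.44 ± 0.415 under NaCl, against 3.71 ± 0.257 untreated, and was 3.87 ± 0.256 in the combination. In Δ*gfdB* it averaged 1.31 ± 0.454 under sorbitol, 2.69 ± 0.940 under NaCl and 7.36 ± 3.09 in the combination, against 4.88 ± 3.17 untreated. The untreated Δ*gfdB* libraries ran from 1.49 to 7.76, so all 3 treatments overlapped them.

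**Figure D3:**
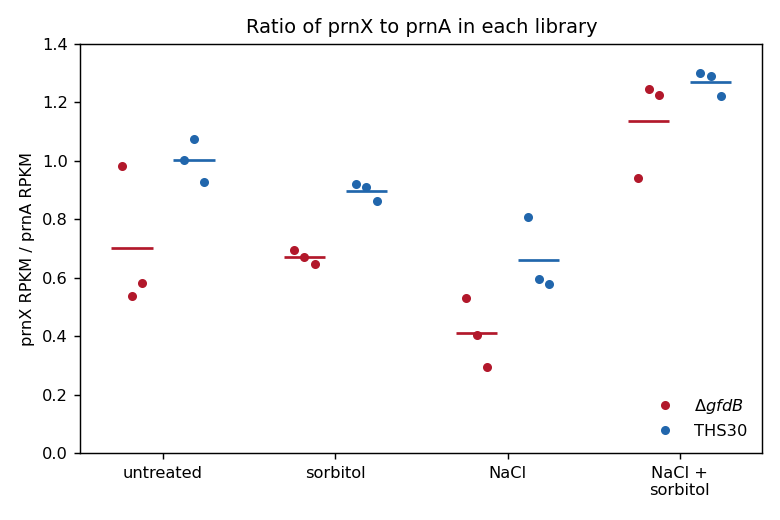
Ratio of *prnX* to *prnA* RPKM in each library by condition, with Δ*gfdB* in red to the left of THS30 in blue and the group mean as a horizontal line. The group means run from 0.411 (Δ*gfdB* under NaCl) to 1.27 (THS30 in the combination).

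The libraries of a group that were high in *prnD* were in part those high in *prnB*. The same library was the highest in both in 5 of the 8 groups, among them THS30 under sorbitol (replicate 2) and under NaCl (replicate 1). For *prnD* and *prnC* this held in 4 of the 8 groups and for *prnC* and *prnB* in 3 of the 8. With 3 libraries in a group, unrelated genes would share the highest library in 1 of 3 groups on average. In untreated Δ*gfdB* the library highest in *prnB* was the lowest in *prnC*. Over the 24 libraries the deviations of log2 CPM from the group means had r = 0.66 for *prnD* and *prnB*, 0.56 for *prnD* and *prnC* and 0.41 for *prnB* and *prnC*. Among all genes tested outside the members, the highest r of such deviations was 0.85 with *prnD* (AN3713), 0.86 with *prnB* (AN3264) and 0.90 with *prnC* (AN1896). These are the top values of a search over all genes, so they cannot be weighed against those of fixed pairs. For *prnA* and *prnX* r was −0.07. These values describe libraries that share their read total, and the deviations of *prnD* had r = 0.34 with log2 library size, those of *prnB* 0.21 and those of *prnC* 0.20. The part of depth in this was not tested. Over the levels themselves, which carry the treatment differences, *prnA* went with *gatA* (r = 0.87), *prnC* (0.85) and *prnX* (0.78), and *prnD* with *prnB* (0.53).

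**Figure D4:**
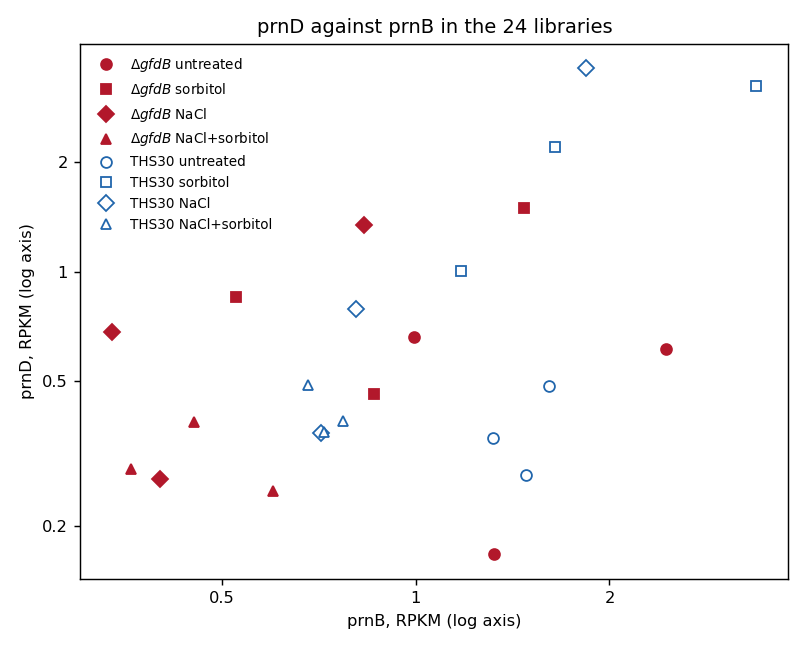
*prnD* against *prnB* RPKM in the 24 libraries on log axes, with Δ*gfdB* as filled red and THS30 as open blue symbols, and a marker shape for each condition. The sorbitol libraries of THS30 lie at 1.00 to 3.23 RPKM of *prnD*, above the untreated ones of that strain at 0.275 to 0.485 RPKM.

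The genes beside the cluster moved in both directions. Of the 5 annotated protein-coding genes on each side, 10 in all, 8 were tested. Under sorbitol, NaCl and the combination 1, 4 and 1 of them were called higher and 2, 2 and 3 lower in Δ*gfdB*, and 4, 5 and 1 higher and 1, 2 and 2 lower in THS30. Of all genes, 15.3%, 18.3% and 5.7% were called higher in Δ*gfdB* in these treatments, and 15.3%, 19% and 7.54% in THS30. Called lower were 14.1%, 17.5% and 8.09% in Δ*gfdB* and 11.3%, 18.1% and 8.23% in THS30. The median log2 fold change of the 8 was −0.20, 0.99 and −0.80 in Δ*gfdB* and 0.84, 1.42 and −0.25 in THS30. Of the 3 neighbours named here, chosen after their values were seen, AN10232 next to *prnA* fell under NaCl in both strains, by 1.73 and 1.46 on the log2 scale. On the other side AN1734, next to *prnC*, rose under NaCl, by 3.04 and 2.97. The largest change among the 8 was that of AN11313, which rose by 6.30 (SE 0.34) under sorbitol and 7.22 (SE 0.34) under NaCl in Δ*gfdB*, and by 7.86 (SE 0.37) and 9.09 (SE 0.37) in THS30.

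Of 48 symbols in 5 lists of related genes, 8 matched the reference table. All 8 were tested, and 4 of them were called in at least 1 treatment of THS30, as were 48.5% of all genes. *amdR*, the gene of the activator of omega-amino acid use that acts on *gatA*, was called lower in all 3 treatments in both strains, as *gatA* was. In these comparisons 8.09% to 18.1% of all genes were called lower, and a link between *amdR* and *gatA* was not tested. *amdR* averaged 5.62 ± 0.341 RPKM under sorbitol, 4.41 ± 0.495 under NaCl and 5.50 ± 0.880 in the combination in Δ*gfdB*, against 14.6 ± 4.19 RPKM untreated (SD, n = 3). In THS30 it averaged 5.36 ± 0.480, 4.92 ± 0.312 and 5.70 ± 0.145 RPKM in the same treatments, against 18.2 ± 1.87 RPKM untreated. Its log2 fold changes were −1.13, −1.35 and −1.23 in Δ*gfdB* and −1.65, −1.54 and −1.45 in THS30 (SE 0.16 to 0.17). Without untreated Δ*gfdB* replicate 2 the value under sorbitol in Δ*gfdB* was −0.99, just under 2-fold. *facB*, the activator gene of acetate use and the other matched gene of the list of GABA, lactam and amide use, was not called.

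Among the nitrogen and carbon regulators, *creA* rose under NaCl in both strains, by 1.77 (SE 0.17) in Δ*gfdB* and 1.60 (SE 0.17) in THS30, and under sorbitol in Δ*gfdB* by 1.59 (SE 0.17), with 0.77 in THS30. *areA* rose in the combination in THS30, by 1.08 (SE 0.09), with 0.64 in Δ*gfdB*, and the THS30 value was 0.87 without TMM scaling. Its mean level was higher in Δ*gfdB*, at 25.1 against 15.4 RPKM untreated (log2 0.76, under 2-fold) and 34.7 against 28.1 RPKM in the combination. *creB*, of a deubiquitinating enzyme in carbon repression, was not called. Of the arginine, ornithine and proline routes 2 genes matched. *argEF* of arginine synthesis fell under NaCl, by 1.18 (SE 0.08) in Δ*gfdB* and 1.11 (SE 0.08) in THS30, and *argB*, of ornithine carbamoyltransferase, was not called. *glnA*, of glutamine synthetase, was the matched gene of glutamate and glutamine and was not called. None of the 12 permease symbols matched.

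A further list of 9 symbols for amino acid routes, cross-pathway control and the CCAAT-binding complex was added after the values of the 6 genes were seen. In Δ*gfdB* 2, 2 and 0 of its 9 genes were called higher under sorbitol, NaCl and the combination and 0 lower in each. Of all genes 15.3%, 18.3% and 5.7% were called higher there and 14.1%, 17.5% and 8.09% lower. In THS30 2, 2 and 1 of the 9 were higher and 0, 1 and 1 lower. The shares of all genes were 15.3%, 19% and 7.54% higher and 11.3%, 18.1% and 8.23% lower. In the combination in Δ*gfdB* *amdX* and *cpcA* lay just under 2-fold, at 0.93 and 0.95, and were called with DESeq2 (1.005 and 1.02) and with only the groups compared (1.006 and 1.02). The list's median ran from 0.02 to 0.46 over the 6 comparisons. *amdX*, a zinc finger activator gene of the acetamidase gene, rose under sorbitol by 1.90 (SE 0.18) in Δ*gfdB* and 1.34 (SE 0.18) in THS30 and under NaCl by 1.67 and 1.44. *cpcA*, the activator gene of cross-pathway control of amino acid synthesis, rose under sorbitol by 1.54 (SE 0.14) in Δ*gfdB* and 1.19 (SE 0.13) in THS30. In the combination *cpcA* had 0.95 in Δ*gfdB*, or 1.03 without untreated replicate 1, and 0.99 in THS30. The THS30 value was called with DESeq2 (1.045), with only the groups compared (1.048), with a replicate block (1.003) and without any 1 of 3 libraries, untreated replicate 2 (1.03) or 3 (1.11) or combination replicate 3 (1.009). *cpcC*, the sensor kinase gene of the same control, fell under NaCl in THS30 by 1.13 (SE 0.10), with −0.82 in Δ*gfdB*, which was called without TMM scaling (−1.20) and by limma (−1.10). *car2*, which bears the name of the ornithine transaminase gene of *Saccharomyces cerevisiae*, rose under NaCl by 1.38 (SE 0.17) in Δ*gfdB* and 1.12 (SE 0.17) in THS30 (0.99 and 0.78 without TMM scaling), and was called lower in the combination in THS30 (adjusted p = 9.18e-07), with −0.62 in Δ*gfdB*.

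The genes most like *gatA* over log2 CPM of the 24 libraries were AN3513, AN8777, AN3591, AN9342 and AN0991, each with r = 0.98. The genes most like the mean of the standardized levels of *prnX*, *prnD*, *prnB* and *prnC* were AN1586 and AN3416 (r = 0.80 each), AN12167 (0.79), AN1032 (0.79) and AN4511 (0.78). Some of the averaged genes ran against each other, with r = −0.48 for *prnX* and *prnD* and −0.34 for *prnD* and *prnC*. The lower r of the mean therefore does not show that the single genes lacked close matches. Taken alone, the best match was AN12472 for *prnX* (0.97), AN3447 for *prnC* (0.92), AN1196 for *prnD* (0.85) and AN6393 for *prnB* (0.84). All these r values rest on the differences between the 8 groups, which the libraries of a group share.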

How the data were processed

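The deposited read counts per gene were made by the authors from single-end reads of 75 bases, aligned with HISAT2 2.1.0 to the FungiDB release 65 genome and counted with featureCounts 2.0.0. The deposited RPKM values, made by the authors with edgeR 3.18, equal count over gene length and library total to a relative difference of 5.3e-15. The gene length column of the deposited table was read in bases. The sources used here do not give the strand setting or the handling of multi-mapping reads. The submitters' processing notes name DESeq2 1.24.0, the paper DESeq2 1.36.0. The sorbitol and NaCl doses follow the treatment protocol, since the series record gives them the other way round, and strains follow the sample titles, since the genotype label of 11 samples differs.

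Counts of the 24 *A. nidulans* libraries were tested with edgeR 4.0.16 in R 4.3.3 (TMM factors 0.809 to 1.165, filterByExpr, glmQLFit, glmQLFTest), a single model of 8 groups, with Benjamini-Hochberg adjustment over the 9498 genes of each comparison. The filter asks for 10 reads at the median library of 20092676.5 reads. SE is the log2 fold change over the square root of F, and intervals are 1.96 SE. Counts of reads carry exact Poisson intervals, which cover counting error only. Alternatives were DESeq2 1.42.0, library totals without TMM, no low-count filter, the groups compared alone, a replicate block, each library left out, and limma 3.58.1 on log2(RPKM + 1). The fitting code was tested on simulated counts. Tables and plots used Python 3.11.15 with pandas 2.3.3 and matplotlib 3.10.9.

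The members, lists and tests were chosen with earlier results of these data known. The named genes were the 6 members, list members called in THS30 (at most 4 per list) and 5 neighbours on each side as counts. The 5 genes most like *gatA* and the 5 most like the mean of *prnX*, *prnD*, *prnB* and *prnC* were named as well. So were the best match of each of these *prn* genes alone and the gene with the highest r of deviations to *prnD*, *prnB* and *prnC*. Of the IDs 10032 matched the RefSeq table (ASM1142v1), 779 with a symbol. It names *prnD*, *prnB*, *prnC* and *gatA*, while the names *prnA* and *prnX* come from the gene identifiers listed for the cluster. Promoter windows were not analysed here. The *A. wentii* libraries were not used here.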

Additional observations from a re-analysis of the deposited data

How the results depend on the processing

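Among the 36 stress responses of the 6 genes, 22 were called. With limma 3 of these were lost (*prnB* in Δ*gfdB* under NaCl and in the combination, *prnD* in THS30 under NaCl), with only the groups compared 1 (*prnB* in Δ*gfdB* under NaCl), and in the fits without 1 library 5 of 132 values. All 22 held with DESeq2, without TMM, without the low-count filter and with the replicate block, which gave 4, 5 and 2 calls in Δ*gfdB* under sorbitol, NaCl and the combination, against 5, 5 and 1 for THS30, as without it. The replicate numbers did not pair the samples (mean correlation 0.0111 for the same number, -0.00529 otherwise, every one over 0.1 in 1 of 28 group pairs). Without TMM the median of all genes shifted to −0.29, −0.47 and −0.30 for Δ*gfdB* and −0.12, −0.45 and −0.28 for THS30 in the same conditions, and the departures from additivity gave 4 calls in Δ*gfdB* and 5 in THS30. Counting error limits *prnD*, *prnB* and *prnC*, with as few as 4, 8 and 25 reads. The causes of the following changes were not tested.

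Members called in the combination numbered 1 in Δ*gfdB* by limma, and 2 in THS30 without TMM and by limma. Between strains under sorbitol 2 were called without TMM. In Δ*gfdB* the combination gave 4 calls against sorbitol with only the groups compared and 1 against NaCl by limma. In THS30 it gave 1 against sorbitol and 1 against NaCl by limma. The share of all genes called between strains was 1.01% with only the groups compared and 0.948% by limma in untreated cultures, and by limma 2.12% under sorbitol, 1.07% under NaCl and 0.948% in the combination. The share called for the interactions with only the groups compared was 0.588% with sorbitol, 0.161% with NaCl and 0.195% with the combination. DESeq2, whose shares are of 10867 genes rather than 9498, gave 0.883% with NaCl and 0.469% with the combination. Limma gave 0.2% with the combination. Limma called 10.3% for the combination against sorbitol in Δ*gfdB*. By Spearman's rho 2 of the 5 genes most like *gatA* remained. For the mean of *prnX*, *prnD*, *prnB* and *prnC* it was 3 of 5.

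The sign of some uncalled values turned. With DESeq2 and with only the groups compared, *prnB* in THS30 under NaCl had 0.027 and 0.041, *cpcC* in Δ*gfdB* in the combination 0.037 and 0.035, and *prnX* there 0.051 and 0.052. Without TMM and by limma, *areA* in Δ*gfdB* under NaCl had −0.094 and −0.091, *prnA* between strains under NaCl −0.038 and −0.035, *gatA* in THS30 for the combination against sorbitol −0.0304 and −0.0317, and *prnA* in Δ*gfdB* for NaCl against sorbitol −0.0646 and −0.0599. By limma *gatA* between strains in the combination had −0.12.

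With each library left out, the ranges were −0.62 to 0.20 for *prnB* in THS30 under NaCl, −0.12 to 0.038 for *cpcC* and −0.089 to 0.076 for *prnX* in Δ*gfdB* in the combination. Between strains they were −0.0012 to 0.52 for *prnC*, −0.30 to 0.41 for *prnB* and −0.27 to 0.0094 for *prnA* untreated, −0.23 to 0.056 for *gatA*, −0.51 to 0.26 for *prnC* and −1.72 to 0.56 for *prnD* under NaCl, and −0.50 to 0.28 for *gatA* and −0.016 to 0.058 for *prnA* in the combination. For NaCl against sorbitol they were −0.95 to 0.30 for *prnD* and −0.04014 to 0.15 for *prnA* in Δ*gfdB*, and −0.65 to 0.13 for *prnC* and −1.72 to 0.23 for *prnD* in THS30. *prnB* in Δ*gfdB* ran from −0.65 to 0.15 for the combination against NaCl and from −0.35 to 0.69 for the departure from additivity. Members called ran from 0 to 1 between strains under sorbitol, 0 to 1 for the sorbitol interaction, 0 to 1 in Δ*gfdB* and 0 to 2 in THS30 for NaCl against sorbitol, and 1 to 2 for the combination against NaCl in Δ*gfdB* and against sorbitol in THS30. The share of all genes called ran from 1.26% to 2.34% between strains in the combination, and from 1.1% to 4.7%, 0.23% to 1.55% and 0.157% to 1.26% for the interactions with sorbitol, NaCl and the combination.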
